A study of Homo sapiens with 6 samples.

Results

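The genes described here are 10 of the 58735 genes in the deposited table and belong to the transcription system of YAP and TAZ. They were chosen by symbol: the coactivator genes YAP1 and WWTR1 (WWTR1 encodes TAZ), TEAD1, the kinase gene LATS2, the angiomotin family genes AMOTL1 and AMOTL2, and the target genes CYR61, CTGF, ANKRD1 and AXL. RNA came from HT1080, an established human fibrosarcoma line, as 3 libraries from cells in which the adhesion receptor GPR56 had been knocked out with CRISPR-Cas9 (KO) and 3 libraries from wild-type cells (WT). The sample descriptions of both genotypes carry the solvent name DMSO, with no dose or time. The labels give neither the targeted site nor the number of clones behind the KO libraries, so genotype and the choice of cell population cannot be told apart. They do not say whether the 3 libraries of a genotype were separate cultures, and p-values then measure only the spread between these libraries, which may be technical.

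YAP and TAZ carry no DNA-binding domain and reach their genes through TEAD proteins. The Hippo kinases, ending in LATS1 and LATS2, phosphorylate YAP and TAZ and keep them in the cytoplasm, while stiff matrix and cell spreading favour their entry into the nucleus. Angiomotins bind YAP and TAZ at junctions and actin filaments, and LATS2 and AMOTL2 are themselves known target genes, which closes a negative feedback loop. An mRNA level reports neither the phosphorylation nor the location of YAP and TAZ.

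Of the 8 genes with an upstream window, CTGF and ANKRD1 have several copies of the TEAD recognition letters close to their start. Their upstream sequences are shown here because both mRNAs were lower in KO. An upstream window of AMOTL2, also lower, and one of AXL, whose genotypes overlapped, are shown beside them. RefSeq windows (GRCh38.p14) of 250 bases before a start were matched for 8 of the 10 genes, 11 windows in all; CYR61 and TEAD1 are named only. Capitals mark GGAATG or its reverse complement CATTCC (the TEAD motif, either strand) and TGANTCA (the AP-1 motif, which reads the same on both strands). The windows lie at chr6:131951373-131951622 (CTGF, RefSeq symbol CCN2, minus strand), chr10:90921088-90921337 (ANKRD1, minus strand), chr3:134374448-134374697 (AMOTL2, the second of 2 windows, minus strand) and chr19:41218973-41219222 (AXL, the first of 2 windows, plus strand), each written 5′ to 3′ towards the gene.
CTGF: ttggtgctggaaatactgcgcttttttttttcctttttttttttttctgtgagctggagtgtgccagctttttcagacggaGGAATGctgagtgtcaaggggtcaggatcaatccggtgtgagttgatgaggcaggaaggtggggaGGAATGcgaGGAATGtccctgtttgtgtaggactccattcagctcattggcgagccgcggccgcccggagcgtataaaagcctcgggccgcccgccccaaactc
ANKRD1: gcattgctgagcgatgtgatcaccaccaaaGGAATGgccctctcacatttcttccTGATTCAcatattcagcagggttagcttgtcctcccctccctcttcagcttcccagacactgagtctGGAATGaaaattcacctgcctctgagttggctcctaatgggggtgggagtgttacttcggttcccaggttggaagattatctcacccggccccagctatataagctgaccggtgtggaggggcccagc
AMOTL2: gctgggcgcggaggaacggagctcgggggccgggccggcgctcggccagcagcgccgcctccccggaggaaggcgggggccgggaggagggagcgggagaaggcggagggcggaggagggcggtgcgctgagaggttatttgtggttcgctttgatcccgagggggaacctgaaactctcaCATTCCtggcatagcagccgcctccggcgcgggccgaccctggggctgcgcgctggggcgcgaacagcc
AXL: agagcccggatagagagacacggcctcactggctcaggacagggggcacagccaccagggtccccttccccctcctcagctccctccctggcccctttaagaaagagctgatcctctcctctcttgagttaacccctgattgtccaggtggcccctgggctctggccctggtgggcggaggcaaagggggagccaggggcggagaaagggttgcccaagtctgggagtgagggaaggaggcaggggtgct
The CTGF window held the TEAD motif 3 times, beginning 169, 104 and 95 bases before the start. Of 34788 different upstream windows of this length in the RefSeq table, 11.9% held at least 1 copy, 0.946% at least 2 and 0.0834% at least 3. The ANKRD1 window held 2 copies, 220 and 128 bases before the start, and an AP-1 motif between them at 195 bases. An AP-1 motif was present in 6.59% of all windows and in no other of the 11 windows matched. Single TEAD motifs lay 162 bases before the YAP1 start, 69 bases before the AMOTL2 start shown and 212 bases before the second AXL start, so 5 of the 8 matched genes held one in some window. The 11.9% above is a share of windows and not of genes, and a share of all genes was not computed. The printed AXL window had no match, nor had the first AMOTL2 window or those of WWTR1, AMOTL1 and LATS2. This says only that these letters are not in these windows. AMOTL2 and AXL thus each had 1 window with the motif and 1 without, so the windows printed do not set these 2 genes apart. A match is a run of letters and was not tested as a binding site.

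The libraries held 16955111 to 17276269 reads in KO and 16410352 to 16461752 reads in WT, recovered from the steps of the FPKM values. FPKM divides a gene's reads by its length and by the size of the library. ADGRG1, the gene of GPR56, had 2.68, 2.54 and 2.58 FPKM in KO and 6.61, 6.07 and 6.87 FPKM in WT, so its mRNA was lower and still present in KO (limma, log2 fold change −1.06 with an SE of 0.07, adjusted p = 6.24e-05). The mesenchymal markers VIM, FN1, SPARC, CDH2 and S100A4 were the 5 of 8 with a mean of at least 1 FPKM, and COL1A1, COL1A2 and THY1 had 498, 0 and 15 reads over the KO libraries and 116, 9 and 2 over the WT libraries. FN1, SPARC and S100A4 rose by 0.55, 0.61 and 1.37 on the log2 scale (limma adjusted p of 0.000841, 0.000541 and 0.00189), and VIM and CDH2 did not pass. The 8 summed to 646 to 743 FPKM in KO and 571 to 609 FPKM in WT. Epithelial CDH1, leukocyte PTPRC and hepatocyte ALB were at 0 reads in all 6 libraries. The 5 epithelial markers summed to 0.901 to 1.005 FPKM in KO and 0.345 to 0.396 FPKM in WT, and CLDN4 alone had 217 reads over the KO libraries and 78 over the WT libraries. The 5 leukocyte markers summed to 0.196 to 0.255 FPKM in KO and 0 to 0.152 FPKM in WT, and the 3 hepatocyte markers to 0 to 0.122 FPKM in KO and 0.0422 to 0.253 FPKM in WT. The 4 endothelial markers summed to 1.39 to 1.59 FPKM in KO and 0.416 to 0.427 FPKM in WT. The part of these markers in the results was not tested. Each library's deviation from the gene means ran with GC content, with Spearman coefficients across genes of 0.46, 0.44 and 0.23 in KO and −0.40, −0.62 and −0.01 in WT. Values with this trend removed are therefore given for each of the 10 genes whose call they change, and for some other results.

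All 10 genes were expressed above the filter of a mean of 1 FPKM. In KO 5 of them fell, 1 rose and 4 did not pass the threshold (limma on log2(FPKM + 1), adjusted p under 0.05 over all 12000 tested genes). Over all tested genes 43.4% were called, 22.4% lower and 21.0% higher in KO. The 5 that fell were CYR61, CTGF, ANKRD1, AMOTL2 and TEAD1, and the one that rose was WWTR1. The libraries of the 2 genotypes did not overlap for 6 genes that were lower and 1 that was higher in KO, while 28.3% of all tested genes were lower and 26.4% higher without overlap. The median log2 fold change of the 10 was −0.24, beside −0.01 for all tested genes. Fold changes are differences of log2(FPKM + 1), KO minus WT, and understate the ratio of low genes. In bulk RNA a lower level per cell and fewer cells carrying an mRNA cannot be told apart.

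**Figure D1:**
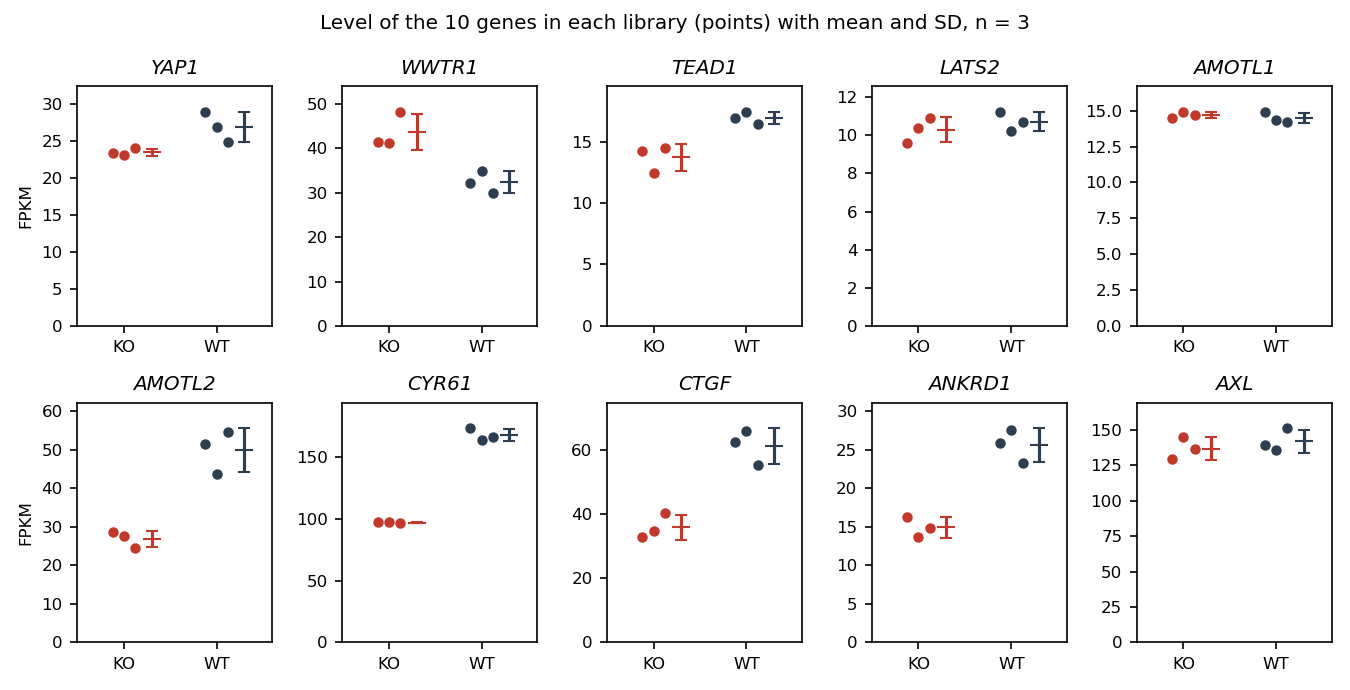
FPKM of the 10 genes in each KO library (red, left) and WT library (dark blue, right), one panel a gene with its own axis from 0; the bar beside the points is the mean with the SD over 3 libraries. CYR61, CTGF, ANKRD1, AMOTL2, TEAD1 and YAP1 lie lower in every KO library, YAP1 without passing the threshold. WWTR1 lies higher, and AMOTL1, LATS2 and AXL overlap between genotypes.

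Of the coactivator genes, WWTR1 rose in KO and YAP1 did not pass the threshold. YAP1 (ENSG00000137693, on GRCh38 at positions 102110461 to 102233423 of the plus strand of chromosome 11) had 23.3, 23.1 and 24.0 FPKM in KO and 29.0, 26.9 and 24.9 FPKM in WT. Every KO library lay below every WT library, but KO 3 and WT 3 were close, and the difference did not pass the threshold (log2 fold change −0.19, SE 0.07, limma adjusted p = 0.0614). It passed when WT 3 was left out (−0.24, adjusted p = 0.0206) and with limma-voom on recovered reads (−0.20, adjusted p = 0.0491), and was smaller with the GC and length trends removed (−0.10, adjusted p = 0.174) and without WT 1 (−0.14, adjusted p = 0.216).
WWTR1 (ENSG00000018408, minus strand of chromosome 3, positions 149517235 to 149736714) had 41.5, 41.2 and 48.2 FPKM in KO and 32.2, 35.0 and 30.0 FPKM in WT. The KO libraries were all higher, by 1.35-fold in the mean (43.6 ± 4.0 against 32.4 ± 2.5 FPKM; SD, n = 3 each). WWTR1 rose by 0.42 on the log2 scale (SE 0.09, limma adjusted p = 0.00774), and by 0.62 with the GC and length trends removed (adjusted p = 0.000269). The 25 other tested genes that start within 5 Mb of WWTR1 had a median of −0.29. For YAP1 the 12 such genes had a median of −0.41.
The ratio of YAP1 to WWTR1, which does not depend on the scaling of a library, was 0.562, 0.561 and 0.498 in KO and 0.900, 0.769 and 0.831 in WT. The genotypes did not overlap in this ratio, with means of 0.540 ± 0.037 and 0.834 ± 0.066 (KO and WT; SD, n = 3 each; exact two-sided permutation p = 0.1, which is the lowest that 3 against 3 libraries can give). WWTR1 was the more abundant mRNA of the pair per length in all 6 libraries. Their summed level was 64.8, 64.3 and 72.3 FPKM in KO and 61.2, 61.9 and 54.9 FPKM in WT. The sum was higher in every KO library, without overlap (exact two-sided permutation p = 0.1, the lowest possible).

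TEAD1, which encodes a DNA-binding partner of YAP and TAZ (ENSG00000187079, plus strand of chromosome 11, positions 12674591 to 12944483), had 14.2, 12.4 and 14.5 FPKM in KO and 16.9, 17.4 and 16.4 FPKM in WT. All KO libraries were lower, and TEAD1 fell by 0.29 on the log2 scale (SE 0.07, limma adjusted p = 0.0163). This call was lost once the GC and length trends were removed (−0.10, adjusted p = 0.199), and also without WT 1 or without KO 2 (adjusted p = 0.0571 in each case). In the main analysis none of the other 3 TEAD genes fell.
TEAD2 had 9.99, 8.58 and 7.66 FPKM in KO, against a WT mean of 3.31 ± 0.30 FPKM (SD, n = 3), and rose by 1.17 on the log2 scale (SE 0.10, limma adjusted p = 0.000219). TEAD3 had 6.06 ± 0.24 FPKM in KO and 4.68 ± 0.76 FPKM in WT (SD, n = 3 each), a rise of 0.32 (adjusted p = 0.0358) that was lost with the GC and length trends removed (0.12, adjusted p = 0.187), with no filter (0.0973) and without any single library other than WT 3 (0.0632 to 0.115). TEAD4, chosen for mention after its values were seen, had 19.0 ± 1.0 FPKM in KO and 19.3 ± 2.3 FPKM in WT (SD, n = 3 each). Its log2 fold change was −0.02 (limma adjusted p = 0.914). With the GC and length trends removed, 1 gene among the coactivator, TEAD and VGLL genes was called lower. By elimination that gene was TEAD4, whose corrected value is not given here. TEAD1 made up 29.0%, 26.3% and 31.3% of the summed FPKM of the 4 TEAD genes in KO and 38.3%, 41.5% and 35.3% in WT, a share that was lower in every KO library. This share is not corrected for GC content, which was 41.3% for TEAD1 and 58.4% to 60.4% for TEAD2, TEAD3 and TEAD4. With the GC and length trends removed, the log2 fold changes of TEAD1 and TEAD2 were −0.10 and 0.98.
VGLL4, whose protein competes with YAP and TAZ for TEAD, had 9.06 ± 0.70 FPKM in KO and 6.96 ± 0.31 FPKM in WT (SD, n = 3 each) and rose by 0.34 (limma adjusted p = 0.00856). In the list of the 2 coactivators, 4 TEAD and 4 VGLL genes, 7 were tested, of which 4 rose, 1 fell and 2 did not pass (median 0.32; 21.0% of all tested genes rose and 22.4% fell). VGLL1, VGLL2 and VGLL3 lay under the filter, with 0, 2 and 89 reads over the KO libraries and 0, 1 and 169 over the WT libraries.

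LATS2, the Hippo kinase gene that is also a YAP target, overlapped between the genotypes. It had 9.62, 10.4 and 10.9 FPKM in KO and 11.2, 10.2 and 10.7 FPKM in WT (ENSG00000150457, minus strand of chromosome 13, positions 20973032 to 21061547; log2 fold change −0.05, SE 0.07, limma adjusted p = 0.564). The 238 other tested genes of chromosome 13 had a median of 0.22, and the 44 within 5 Mb of LATS2 one of 0.26. Its paralogue LATS1 was lower, with 3.81 ± 0.17 FPKM in KO and 5.51 ± 0.59 FPKM in WT (SD, n = 3 each; log2 fold change −0.43, adjusted p = 0.0053; −0.19 at an adjusted p of 0.0181 with the GC and length trends removed). The ratio of LATS2 to LATS1 was 2.56, 2.83 and 2.73 in KO and 2.04, 1.68 and 2.17 in WT, without overlap (exact two-sided permutation p = 0.1, the lowest possible). With the GC and length trends removed, the log2 fold changes of LATS2 and LATS1 were −0.13 and −0.19.

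Of the angiomotin genes, AMOTL2 fell and AMOTL1 did not pass the threshold. AMOTL2 (ENSG00000114019, minus strand of chromosome 3, positions 134355874 to 134375479), whose upstream window with 1 TEAD motif is printed above, had 28.5, 27.5 and 24.4 FPKM in KO and 51.4, 43.7 and 54.7 FPKM in WT. Its mean in KO was 0.537 of that in WT, the lowest ratio among the 10 genes, and it fell by 0.87 on the log2 scale (SE 0.10, limma adjusted p = 0.000665).
AMOTL1 (ENSG00000166025, plus strand of chromosome 11, positions 94706431 to 94876753) had 14.5, 14.9 and 14.7 FPKM in KO and 14.9, 14.4 and 14.2 FPKM in WT. The genotypes overlapped, with a log2 fold change of 0.02 (SE 0.05, adjusted p = 0.802). The ratio of AMOTL2 to AMOTL1 was 1.97, 1.84 and 1.66 in KO and 3.45, 3.04 and 3.84 in WT (exact two-sided permutation p = 0.1, the lowest possible). AMOT, the third family member, lay under the filter, at 0.975 ± 0.232 FPKM in KO and 0.881 ± 0.075 FPKM in WT (SD, n = 3 each).

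**Figure D2:**
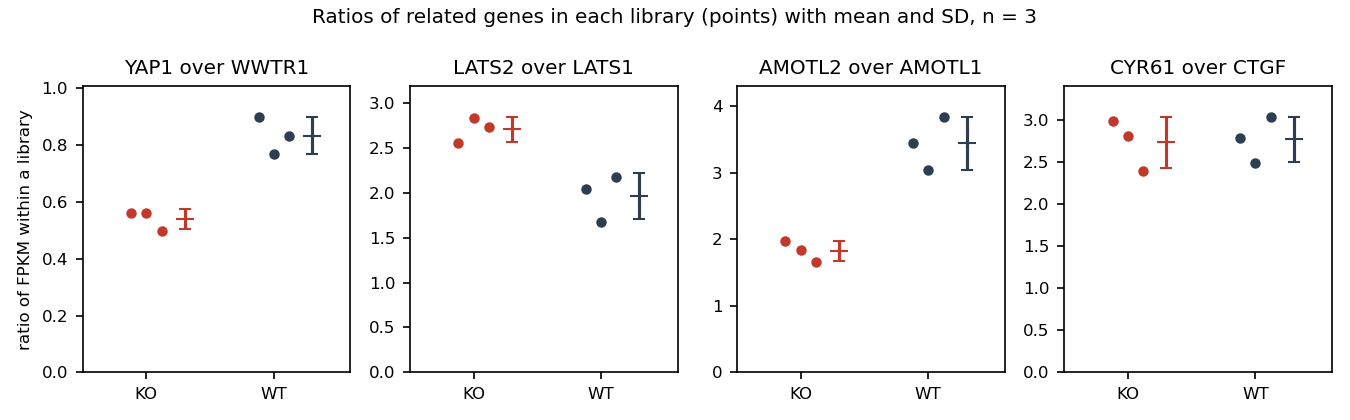
Ratios of FPKM between related genes within each KO library (red, left) and WT library (dark blue, right), with the mean and SD over 3 libraries; each axis starts at 0. YAP1 over WWTR1 and AMOTL2 over AMOTL1 are lower and LATS2 over LATS1 is higher in every KO library, while CYR61 over CTGF overlaps between genotypes. The ratios are not corrected for GC content, after which LATS2 and LATS1 differed between genotypes by −0.13 and −0.19 on the log2 scale.

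The secreted matricellular genes CYR61 and CTGF, the usual reporters of YAP and TAZ activity, fell together. CYR61 (approved symbol CCN1; ENSG00000142871, plus strand of chromosome 1, positions 85580761 to 85583962) had 97.8, 97.3 and 96.5 FPKM in KO and 173.7, 164.3 and 166.8 FPKM in WT (3934 to 4119 reads a library in KO, 6713 to 7217 in WT). The KO libraries lay close together and far below WT, and CYR61 fell by 0.79 on the log2 scale (SE 0.06, limma adjusted p = 0.000104).
CTGF (ENSG00000118523, minus strand of chromosome 6, positions 131948176 to 131951373), the gene with 3 upstream TEAD motifs, had 32.7, 34.6 and 40.3 FPKM in KO and 62.5, 66.0 and 55.1 FPKM in WT. Every KO library was lower, with a mean ratio of 0.586, and CTGF fell by 0.76 (SE 0.10, adjusted p = 0.00116). The ratio of CYR61 to CTGF was 2.99, 2.81 and 2.39 in KO and 2.78, 2.49 and 3.03 in WT, and the genotypes overlapped (exact two-sided permutation p = 0.8).
ANKRD1 (ENSG00000148677, minus strand of chromosome 10, positions 90912096 to 90921276) encodes a muscle ankyrin repeat protein of sarcomere and nucleus and is a direct TEAD target. It had 16.3, 13.7 and 14.8 FPKM in KO and 25.9, 27.7 and 23.3 FPKM in WT, and fell by 0.74 without overlap (SE 0.09, adjusted p = 0.000809). Mean KO to WT ratios of the 4 genes that fell most were thus 0.537 to 0.586, and all 4 calls held under the 15 alternatives tried. The medians of the tested genes within 5 Mb of these 4 genes ran between −0.21 and −0.14.

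AXL, a receptor tyrosine kinase gene activated by YAP in several tumour types, did not pass the threshold. It had 129.3, 144.9 and 136.2 FPKM in KO and 139.4, 135.6 and 151.1 FPKM in WT (ENSG00000167601, plus strand of chromosome 19, positions 41219203 to 41261766). The libraries were interleaved and the log2 fold change was −0.05 (SE 0.07, limma adjusted p = 0.584). After the GC and length correction it was −0.16 at an adjusted p of 0.05, just inside the threshold before rounding. The 726 other tested genes of chromosome 19 had a median of 0.19.

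In levels per length, AXL and CYR61 were the most abundant of the 10 mRNAs in all 6 libraries, and their order differed between genotypes. AXL was above CYR61 in each KO library and CYR61 above AXL in each WT library. CTGF likewise lay below WWTR1 in each KO library and above it in each WT library. ANKRD1 overlapped AMOTL1 and TEAD1 in KO in range, at 13.7 to 16.3, 14.5 to 14.9 and 12.4 to 14.5 FPKM. Within each KO library TEAD1 lay below both of the others, while the order of ANKRD1 and AMOTL1 differed between KO libraries. In WT, ANKRD1 overlapped YAP1 instead, at 23.3 to 27.7 and 24.9 to 29.0 FPKM. LATS2 had the lowest level of the 10 genes in every library.

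**Figure D3:**
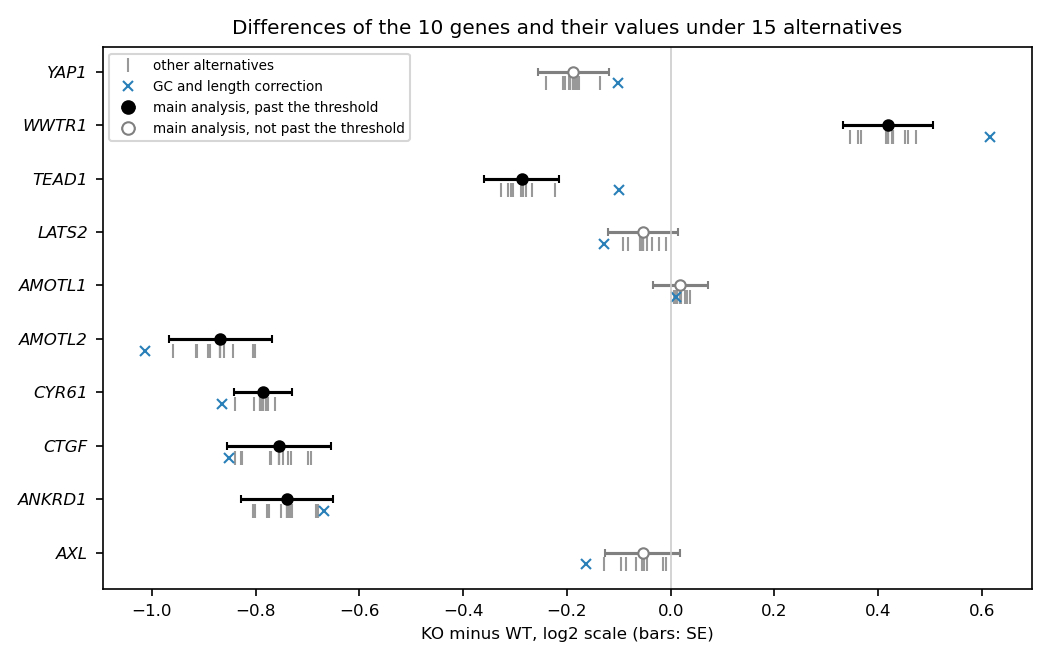
KO minus WT difference of each gene on the log2 scale in the main analysis (circles with SE; filled where the adjusted p was under 0.05) and under 15 alternatives (grey ticks, with the GC and length correction as a blue cross). The values of AMOTL2, CYR61, CTGF and ANKRD1 stay below −0.66, WWTR1 stays above 0.34, and TEAD1 moves to −0.10 after the GC and length correction.

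A wider list of 22 widely used YAP and TAZ targets, which holds 6 of the 10 genes, had 19 tested members. Of these 8 fell, 3 rose and 8 did not pass, with a median of −0.19; 22.4% of all tested genes fell and 21.0% rose. Among the 13 tested targets outside the 10 genes, 4 fell and 3 rose, and their median was −0.18.
CRIM1, a transmembrane protein that binds bone morphogenetic proteins, had 23.4 ± 0.8 FPKM in KO and 35.2 ± 0.6 FPKM in WT (SD, n = 3 each; log2 fold change −0.57, limma adjusted p = 0.00033). CCDC80, a secreted matrix protein, fell by 0.55 (2.86 ± 0.11 and 4.67 ± 0.34 FPKM in KO and WT). FOXF2, a forkhead transcription factor, fell by 0.44 (9.84 ± 1.07 and 13.7 ± 0.6 FPKM in KO and WT). With the GC and length trends removed, the log2 fold changes of CCDC80 and FOXF2 were −0.41 and −0.67.
Another 3 targets went the other way and rose: PTPN14, ARHGEF17 and TGFB2. PTPN14, a phosphatase that binds and restrains YAP, had 24.8 ± 0.7 FPKM in KO and 16.4 ± 0.2 FPKM in WT (log2 fold change 0.57, adjusted p = 0.000299). ARHGEF17, a guanine nucleotide exchange factor, rose by 0.50 (6.86 ± 0.39 and 4.58 ± 0.41 FPKM in KO and WT), and by 0.32 after the GC and length correction. TGFB2, a TGF-beta ligand, had 3.31 ± 0.28 FPKM in KO and 1.57 ± 0.18 FPKM in WT (log2 fold change 0.74, adjusted p = 0.000793). IGFBP3, NT5E and RBMS3 had means under the filter, so no test was made.

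Of 25 genes of the Hippo kinases, their scaffolds and the STRIPAK phosphatase scaffold, a list that includes LATS2, AMOTL1 and AMOTL2, 24 were tested. In KO 9 fell, 1 rose and 14 did not pass (median −0.11), while 22.4% of all tested genes fell and 21.0% rose. With the GC and length trends removed, 6 were called lower and 2 higher. MOB1A and MOB1B, the coactivators of LATS kinases, had 17.0 ± 0.5 and 2.37 ± 0.29 FPKM in KO, against 23.4 ± 2.3 and 4.65 ± 0.58 FPKM in WT (SD, n = 3 each). MOB1B fell by 0.74 (limma adjusted p = 0.00144) and MOB1A by 0.44 (adjusted p = 0.00412). TAOK1, an upstream kinase, fell by 0.58 (5.45 ± 0.32 and 8.66 ± 0.71 FPKM in KO and WT). STRN3, a striatin, fell by 0.44 (4.85 ± 0.42 and 6.91 ± 0.28 FPKM in KO and WT). The gene that rose was WWC3, a relative of the scaffold KIBRA, at 6.95 ± 0.08 FPKM in KO and 4.93 ± 0.20 FPKM in WT (log2 fold change 0.42, adjusted p = 0.00133).
Removal of the GC and length trends moved the differences of 4 of these mRNAs, whose GC contents were 34.3% to 40.7%, by over 1.5 times: MOB1B to −0.31, TAOK1 to −0.31, STRN3 to −0.25 and MOB1A to −0.12, the last without a call (adjusted p = 0.066). LATS1 of the same list, described above and with a GC content of 39.7%, likewise moved from −0.43 to −0.19.

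**Figure D4:**
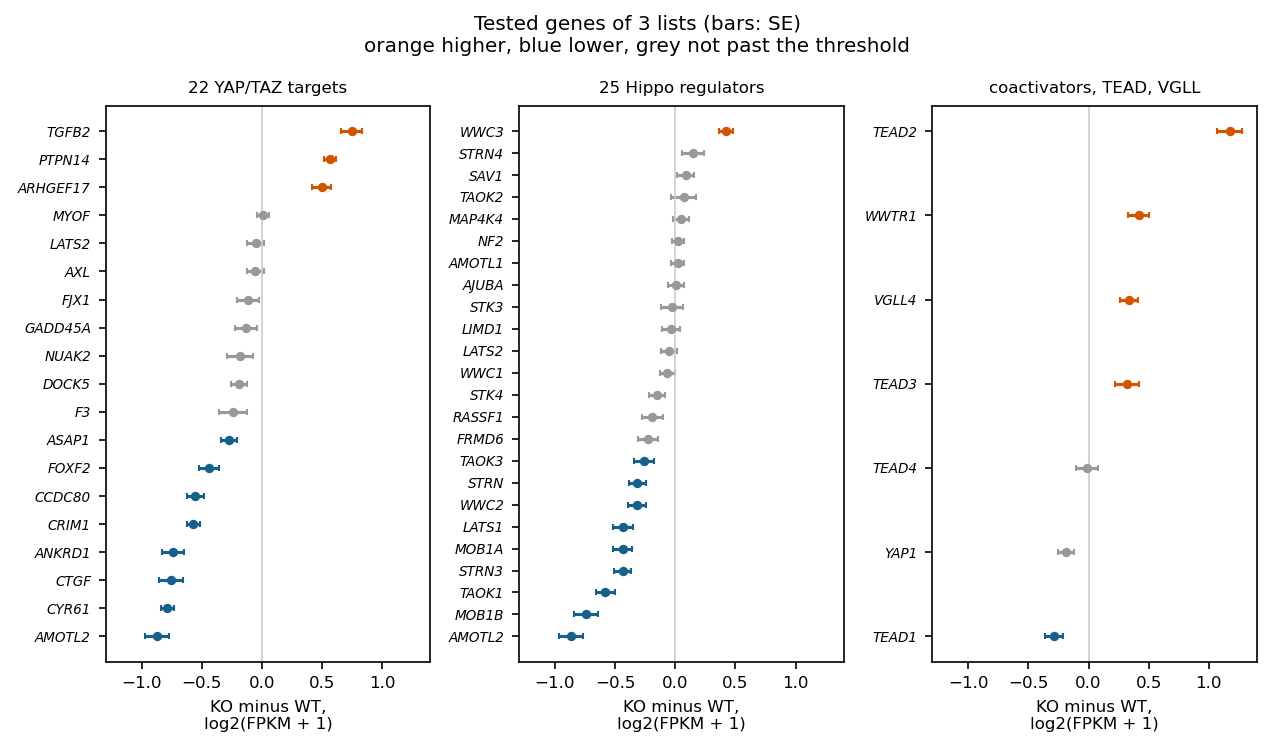
KO minus WT difference on the log2(FPKM + 1) scale (points, with SE) of every tested gene in 3 lists: YAP and TAZ targets, Hippo regulators, and coactivators with TEAD and VGLL genes. Orange points were called higher, blue lower and grey did not pass. Among the targets 8 are blue and 3 orange, and among the coactivator, TEAD and VGLL genes 4 are orange (WWTR1 included) and 1 is blue.

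The 3 tested genes whose centred log2(FPKM + 1) profile over the 6 libraries lay nearest to that of CYR61 were JCAD, ANK2 and the long noncoding RNA gene AC079949.2, at Euclidean distances of 0.077, 0.086 and 0.090. JCAD had 2.66 ± 0.14 FPKM in KO and 5.28 ± 0.16 FPKM in WT (SD, n = 3 each). All 3 are low genes, whose ratios the added 1 FPKM understates. Their mean KO to WT ratios were 0.504, 0.339 and 0.479, against 0.578 for CYR61. With limma-voom their log2 fold changes were −0.99, −1.56 and −1.06, against −0.79 for CYR61. Nearest to CTGF were SPCS3, NRIP3 and PRKAA1, at distances of 0.078, 0.093 and 0.098, with SPCS3 at 19.9 ± 1.9 FPKM in KO and 33.8 ± 4.1 FPKM in WT. With the GC and length trends removed, the log2 fold changes of SPCS3, NRIP3 and PRKAA1 were −0.36, −0.72 and −0.33 and that of CTGF −0.85; without that correction they were −0.73, −0.70 and −0.71, and −0.76 for CTGF. With 3 libraries a genotype, such profiles mostly record the size of the genotype difference.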

How the data were processed

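The authors deposited 1 table of FPKM values for 58735 genes in 3 KO and 3 WT libraries, made with a SMARTER mRNA-Seq kit per the labels' protocols. No header or label used here gives the aligner, counter or strand setting. Mouse builds are named in the submitters' processing notes (GRCm38 and mm10), but positions and exonic lengths of all 58735 genes equal human GENCODE release 29 on GRCh38. The gene length in bases in the deposited table, an annotation value of another kind than expression, was used to recover whole reads: 100.0% of values above 0 lay within 0.02 of a whole read. PCR reads without molecular identifiers are not independent molecules.

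The test was limma 3.58.1 (R 4.3.3; lmFit, eBayes with trend) on log2(FPKM + 1) for 12000 genes with a mean of at least 1 FPKM, all 6 libraries, genotype only, two-sided, Benjamini-Hochberg over all of them. The script was tested on simulated data. Alternatives were quantile and median-ratio scaling, a pseudocount of 0.1, no filter or one at 5 FPKM, no trend, removal of GC and length trends (loess per library, GC of the longest transcript), limma-voom, a replicate block and each library left out. Members and lists were chosen with earlier results of these data known. Another list is not reported here. Besides the 10 genes and ADGRG1, the text names up to 6 called targets, 6 regulators and 4 TEAD or VGLL genes by smallest adjusted p, and the 3 nearest profiles of CYR61 and of CTGF. Exons of 6 of the 10 genes overlap another gene by 1.3% to 9.97% of their bases, with that gene at a mean of at most 1.24 FPKM.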

Additional observations from a re-analysis of the deposited data

How the results depend on the processing

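Of 314 values recomputed for the 10 genes, ADGRG1 and the counts (21 results under up to 15 alternatives), 298 kept their direction and their side of the threshold, or stayed within 1.5 times for a count, and none changed sign. For 21 other named genes 299 of 308 values did, the exceptions being 8 of TEAD3 and 1 of MOB1A. With the filter at 5 FPKM, 1564 genes were lower and 1639 higher, fewer genes being tested. After the GC and length correction TEAD1 was at −0.10, AXL at −0.16, the regulators had 6 lower (9 in the main analysis) and 2 higher (1), and the targets had 11 lower (8). With limma-voom YAP1 was at −0.20 and the TEAD and VGLL list, which includes the coactivators, had 2 lower. The replicate block gave 3866 called genes, against 5207 without it, 0 lower in the TEAD and VGLL list, and no call for TEAD1 at −0.29 (adjusted p = 0.0597) or TEAD3 at 0.32 (adjusted p = 0.0596). Same-numbered libraries did not deviate together (r of −0.074, −0.184 and −0.348 across genes). No pairing by number was seen, but deviations within 3 libraries a genotype cannot exclude it. With single libraries left out, YAP1 ranged from −0.24 to −0.14 and TEAD1 from −0.33 to −0.22. The count of regulators higher ranged from 1 to 2, and that of the TEAD and VGLL list lower from 0 to 2. Where a setting moved a value, the cause was not tested unless stated. Planned edgeR and DESeq2 fits were not run, the values being FPKM. Members had 465 or more reads in every library, and the precision rests on 3 libraries a genotype.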
